A study of Mus musculus with 2 samples.

Results

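The 34 genes described here encode the core machinery of autophagy, measured by sequencing of polyadenylated RNA from the frontal cortex of 8-week-old C57BL/6J mice. They were chosen by name, and each of the 34 symbols matched 1 of the 43346 annotated genes in the deposited quantification. The series holds 1 group with 2 biological replicates and no treatment or mutation, so levels, ratios between genes and differences between the libraries are described, with no contrast between conditions. The labels describe littermates with the sexes pooled and give both libraries the same donor record, so the spread between them may not be the spread between unrelated animals. Expected counts, which are estimated fragments per gene, totalled 106084891 fragments for replicate 1 and 90476207 for replicate 2, and single members had between 398 and 35504.

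Autophagy delivers cytoplasm, damaged organelles and protein aggregates to the lysosome inside a double-membrane vesicle, the autophagosome. The Ulk kinase complex starts the process, a class III lipid kinase complex marks the membrane with PI3P, lipid transfer proteins and PI3P binders expand it, and a pair of ubiquitin-like conjugation systems attaches Atg8 proteins to its lipid. In the brain, neurons form autophagosomes far out in the axon and carry them back to the cell body, and mice that lack Atg5 or Atg7 in neural cells accumulate ubiquitin-positive inclusions and lose neurons.

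Before the levels, 2 facts about the libraries bear on every value below. Sex-linked genes went against the pooled label: Xist, transcribed from the inactive X, was counted 107 times in replicate 1 and 77696 times in replicate 2, whereas Y-linked Eif2s3y had 7150 and 3 counts. The libraries also differed in activity-induced genes, with 5 of 5 lower in replicate 1 by more than 0.5 on the log2 scale, and in cell type markers, with a median log2 ratio of replicate 1 over replicate 2 of 0.43 for microglia and -0.43 for oligodendrocytes. Levels are given in TPM as the authors deposited it, which is each transcript's share of all transcripts after division by length. Of the markers of excitatory neurons, which the labelled tissue should hold, 5 of 5 had a mean of 1 TPM or more, against 0 of 3 of choroid plexus. Markers of neighbouring regions were also at that level, with 3 of 3 of olfactory bulb (summed TPM of 233.1 in replicate 1 and 241.6 in replicate 2) and 3 of 3 of striatum (158.0 and 197.1). In bulk tissue, fewer cells of a type and less RNA per cell cannot be told apart.

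The Atg8 proteins are small ubiquitin-like modifiers that are cut behind a glycine near their carboxyl end and joined through it to phosphatidylethanolamine. They form the LC3 subfamily, Map1lc3a and Map1lc3b, and the GABARAP subfamily, Gabarap, Gabarapl1 and Gabarapl2. The last 60 bases of each coding sequence, from the GENCODE M21 transcripts on GRCm38, show the end that is processed, with the last glycine codon in capitals and the stop codon at the end. They lie, all on the plus strand, at chr2:155277578-155277637 for Map1lc3a, chr8:121596711-121596770 for Map1lc3b, chr11:69994465-69994524 for Gabarap, chr6:129541108-129541167 for Gabarapl1 and chr8:111952346-111952405 for Gabarapl2.
Map1lc3a: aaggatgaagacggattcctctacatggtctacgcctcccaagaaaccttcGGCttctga
Map1lc3b: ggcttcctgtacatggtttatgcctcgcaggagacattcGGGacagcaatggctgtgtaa
Gabarap: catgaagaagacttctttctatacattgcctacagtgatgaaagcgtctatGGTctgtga
Gabarapl1: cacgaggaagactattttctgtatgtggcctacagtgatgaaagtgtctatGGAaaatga
Gabarapl2: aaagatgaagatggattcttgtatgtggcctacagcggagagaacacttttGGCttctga
Map1lc3b carries 5 codons between that glycine and the stop, and each of the other 4 carries 1. Over aligned coding bases the pair Map1lc3a and Map1lc3b was 76.5% identical and Gabarap and Gabarapl1 were 74.9% identical. Gabarapl2 was 61.9% identical to Gabarap and 63.8% identical to Gabarapl1. Between the subfamilies identity ran from 51.4% to 55.4%. The longest stretch of identical bases shared by the coding sequences of any of the 10 pairs, at any position, was 17.

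All 34 members were detected. Each had a mean of 1 TPM or more, against 61.7% of 21461 protein-coding genes, and 33 had 5 TPM or more, against 47.6%. The median member stood at 24.5 TPM, against 13.9 TPM for the 13234 detected protein-coding genes. Of the members, 24 lay above that median, 14 above the upper quartile of 33.2 TPM and 1 below the lower quartile of 5.54 TPM. Their TPM summed to 1591 ± 36.7 (SD, n = 2, as for every SD below).

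**Figure D1:**
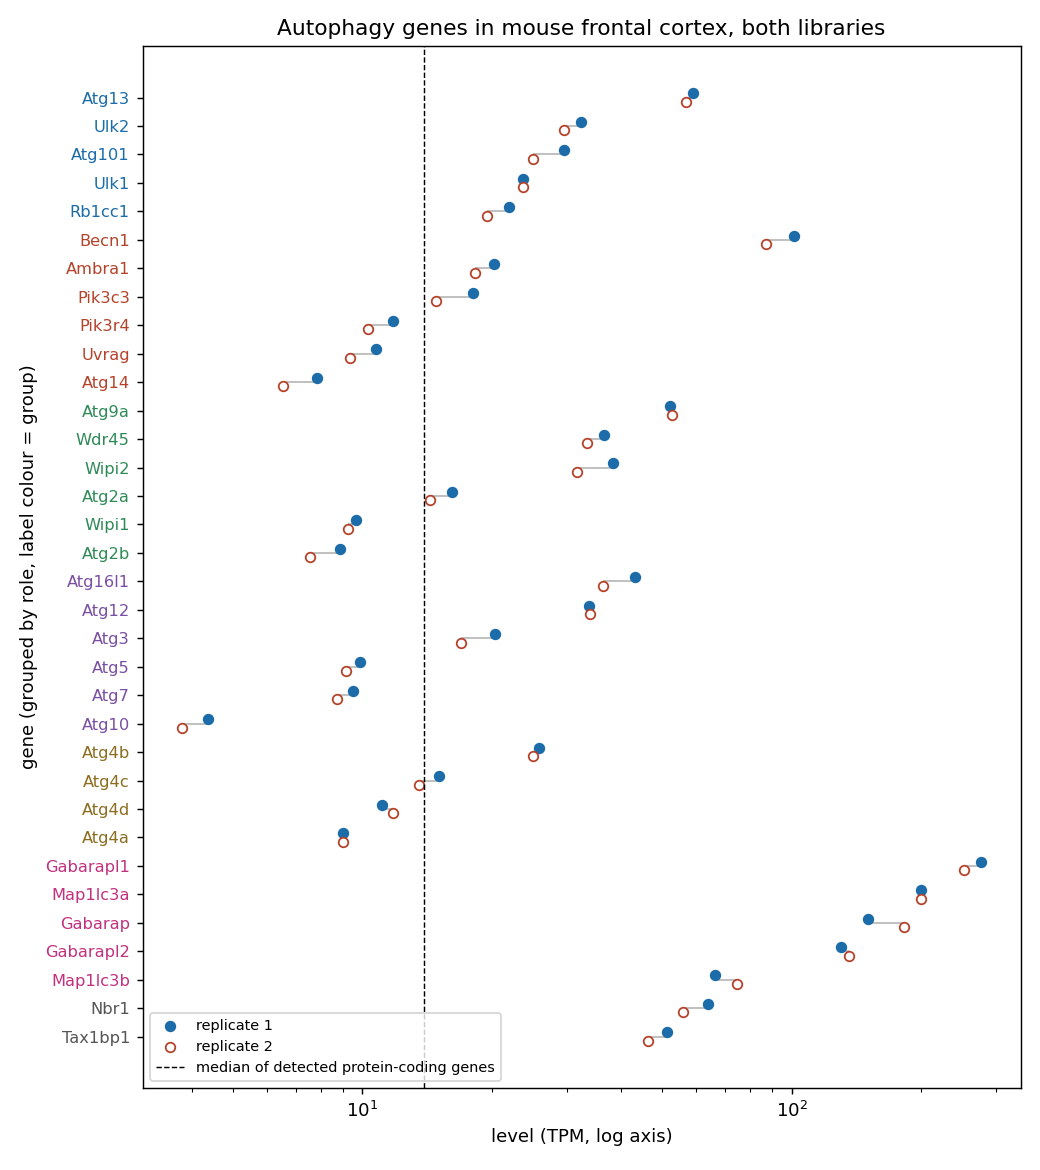
Level of each autophagy gene in TPM (log axis) in replicate 1 (filled) and replicate 2 (open), ordered within 7 groups by role, with the median of detected protein-coding genes (13.9 TPM) as a dashed line. The 5 Atg8 family genes reach from 66.3 to 275.6 TPM, and Becn1 stands apart from the other lipid kinase genes.

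The Atg8 family took 52.4% of the members' summed TPM with 5 of 34 genes. Gabarapl1, the most abundant member (chromosome 6, 129533160 to 129542346), had 275.6 TPM in replicate 1 and 252.6 in replicate 2. Map1lc3a (chromosome 2, 155276297 to 155278073) had 200.1 and 199.7 TPM. Gabarap, the founding member of its subfamily (chromosome 11, 69991143 to 69994951), had 150.4 and 182.3 TPM. Each of these 3 lay above the 96th percentile of detected protein-coding genes, and Gabarap had the widest gap between the libraries. Gabarapl2, first known as a Golgi transport factor (GATE-16), had 130.2 and 135.9 TPM. Map1lc3b, the form most often followed as an autophagosome marker, had 66.3 and 74.6 TPM and was the lowest of the 5 in both libraries over all transcripts.

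The genes were compared in 28 pairs of paralogs or partners. A pair was called apart when the log2 ratio had the same sign in both libraries, its mean exceeded its SD and the deposited TPM intervals of the genes did not overlap in either library. With 2 libraries the smallest two-sided p of an exact sign-flip test is 0.5, so no p is given. By this rule 25 of the 28 pairs were apart. The share of other gene pairs that would pass was not computed, so this count is a description. For 19 of the 34 members the deposited interval in replicate 1 did not overlap that in replicate 2. The share over all genes was not computed for this count either. TPM ran higher in replicate 1 for 27 of the 34 members. Over all tested genes the median difference on log2(TPM + 1) was 0.12. The intervals therefore do not cover the whole difference between the libraries, which includes this offset. Map1lc3a exceeded Map1lc3b by a log2 ratio of 1.51 ± 0.12, and Gabarapl1 exceeded Map1lc3a by 0.40 ± 0.09. Gabarap over Gabarapl1 was -0.67 ± 0.29, at -0.87 in replicate 1 and -0.47 in replicate 2, so the sign was shared and the size was not. Within the GABARAP subfamily, Gabarapl1 over Gabarapl2 was 0.99 ± 0.13 and Gabarap over Gabarapl2 was 0.32 ± 0.15.

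**Figure D2:**
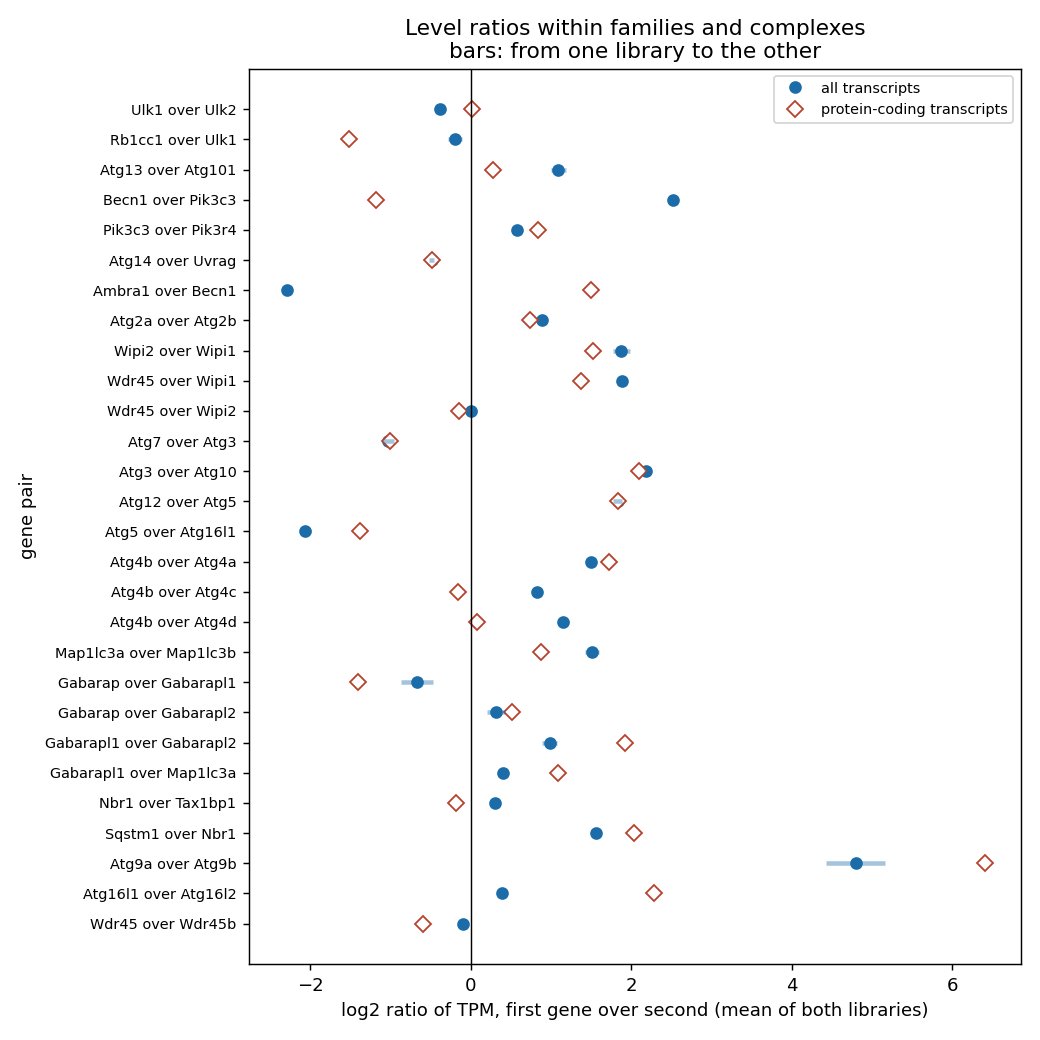
Log2 ratio of TPM for each of the 28 gene pairs, first gene over second, as the mean of both libraries (filled circles, bars spanning the libraries) and over protein-coding transcripts only (open diamonds). Becn1 over Pik3c3 is -1.17 over protein-coding transcripts, against 2.52 over all, while Atg14 over Uvrag is -0.49 on both.

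The initiation kinase complex joins a kinase, Ulk1 or Ulk2, to the scaffold Rb1cc1 (FIP200), the regulatory subunit Atg13 and its stabilising partner Atg101. Atg13 led it with 59.0 TPM in replicate 1 and 56.7 in replicate 2. Ulk2 had 32.3 and 29.5 TPM. Ulk1, the kinase that AMPK and mTORC1 act on, had 23.6 and 23.7 TPM. Ulk1 over Ulk2 was -0.38 ± 0.09, so Ulk2 was the more abundant kinase transcript in both libraries over all transcripts, but the ratio over protein-coding transcripts was 0.02 ± 0.16. Atg101 had 29.5 and 24.9 TPM, and Atg13 exceeded it by 1.09 ± 0.13. Rb1cc1 had 22.0 and 19.5 TPM and was not apart from Ulk1 in TPM over all transcripts, at a log2 ratio of -0.19 ± 0.13. Other measures separated them, with Rb1cc1 over Ulk1 at -1.39 by counts per kilobase of the longest transcript and -1.51 ± 0.19 over protein-coding transcripts. By counts not divided by length the ratio was -0.84. That value also carries the genes' deposited effective lengths, 3247 and 5005 bases in replicate 1. Over protein-coding transcripts Atg13 over Atg101 was 0.27 ± 0.07.

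The lipid kinase complexes share the catalytic subunit Pik3c3 (VPS34), the pseudokinase Pik3r4 (VPS15) and Becn1 (Beclin 1), with Atg14 in the complex that nucleates the autophagosome and Uvrag in the one that acts on endosomes. Becn1 had 101.1 TPM in replicate 1 and 87.2 in replicate 2, the fifth highest of the members. Pik3c3 had 18.1 and 14.9 TPM. Pik3r4 had 11.8 and 10.3 TPM. Becn1 over Pik3c3 was 2.52 ± 0.05 over all transcripts, and Pik3c3 over Pik3r4 was 0.57 ± 0.07. Uvrag had 10.8 and 9.34 TPM and Atg14 had 7.83 and 6.54 TPM, with Atg14 below Uvrag in both libraries at -0.49 ± 0.04. Ambra1, which binds Becn1 and promotes Ulk1 ubiquitination, had 20.2 and 18.3 TPM.

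Among the genes of lipid transfer and PI3P binding, Atg9a, the only multispanning membrane protein of the core set and a lipid scramblase, was highest at 52.0 TPM in replicate 1 and 52.7 in replicate 2. The PI3P binders Wdr45 (WIPI4) and Wipi2, which recruits Atg16l1, could not be told apart over all transcripts. Wdr45 had 36.6 and 33.4 TPM. Wipi2 had 38.3 and 31.6 TPM, and the log2 ratio of Wdr45 over Wipi2 was 0.01 ± 0.10. It was -0.35 by counts per kilobase of the longest transcript. By counts not divided by length it was -2.05, which also carries the effective lengths, 1030 and 4133 bases in replicate 1. Wipi1, their paralog, was lower at 9.64 and 9.27 TPM, with Wipi2 over Wipi1 at 1.88 ± 0.16. The lipid channels Atg2a and Atg2b had 16.1 and 14.4 TPM, and 8.89 and 7.56 TPM, and Atg2a exceeded Atg2b by 0.89 ± 0.05.

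The conjugation enzymes were less abundant than the modifiers they handle. Atg7, the E1-like enzyme of both systems, had 9.52 TPM in replicate 1 and 8.72 in replicate 2. The value in replicate 2 lay below its own deposited interval of 8.97 to 11.12. Atg3, the E2-like enzyme for Atg8 proteins, had 20.3 and 17.0 TPM. Atg10, the E2-like enzyme for Atg12, was the lowest of all 34 at 4.36 and 3.81 TPM. Atg7 over Atg3 was -1.03 ± 0.10 and Atg3 over Atg10 was 2.19 ± 0.05. The Atg12 system, served by Atg7 and Atg10, yields the Atg12-Atg5-Atg16l1 complex, whose transcripts were not at equal levels. Atg12 had 33.7 and 33.9 TPM. Atg5 had 9.85 and 9.17 TPM. Atg16l1 had 43.1 and 36.3 TPM, so Atg12 over Atg5 was 1.83 ± 0.08 and Atg5 over Atg16l1 was -2.06 ± 0.10, or -1.37 ± 0.04 over protein-coding transcripts.

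The Atg4 proteases, which expose the glycine of Atg8 proteins and release them from lipid, were led over all transcripts by Atg4b, the broadest of them in substrate range, at 25.85 TPM in replicate 1 and 24.99 in replicate 2. Atg4c had 15.1 and 13.6 TPM, and Atg4d 11.1 and 11.8 TPM. Atg4a, which prefers the GABARAP subfamily, had 9.03 and 9.00 TPM. Atg4b exceeded Atg4a by 1.50 ± 0.03, Atg4d by 1.15 ± 0.10 and Atg4c by 0.83 ± 0.07. Over protein-coding transcripts Atg4b did not lead, with 12.1 TPM, against 13.6 TPM for Atg4c, and Atg4b over Atg4d was 0.083 ± 0.052. The cargo receptors Nbr1 and Tax1bp1 link ubiquitinated cargo to Atg8 proteins. Nbr1 had 64.0 and 56.0 TPM, Tax1bp1 had 51.1 and 46.2 TPM, and the ratio of 0.30 ± 0.03 placed Nbr1 above Tax1bp1 over all transcripts. That order did not hold on other measures, as the ratio was -0.18 ± 0.03 over protein-coding transcripts and -0.28 by counts per kilobase of the longest transcript.

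Transcript use changed some of these orders. Of the 34 members, 10 had 1 annotated transcript in the quantification and 24 had several. The leading transcript was of protein-coding biotype for 30. Among the 21 members with several transcripts and 10 TPM or more, 18 (85.7%) led with a protein-coding transcript, against 89.8% of 6147 protein-coding genes of the same kind, and 3 (14.3%) had under 50% of their TPM on such transcripts, against 13.0%. Both shares lay near the background. The median of the 21 on protein-coding transcripts was 75.6%, against 89.9%, and on retained-intron transcripts 9.80%, against 2.04%.

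**Figure D3:**
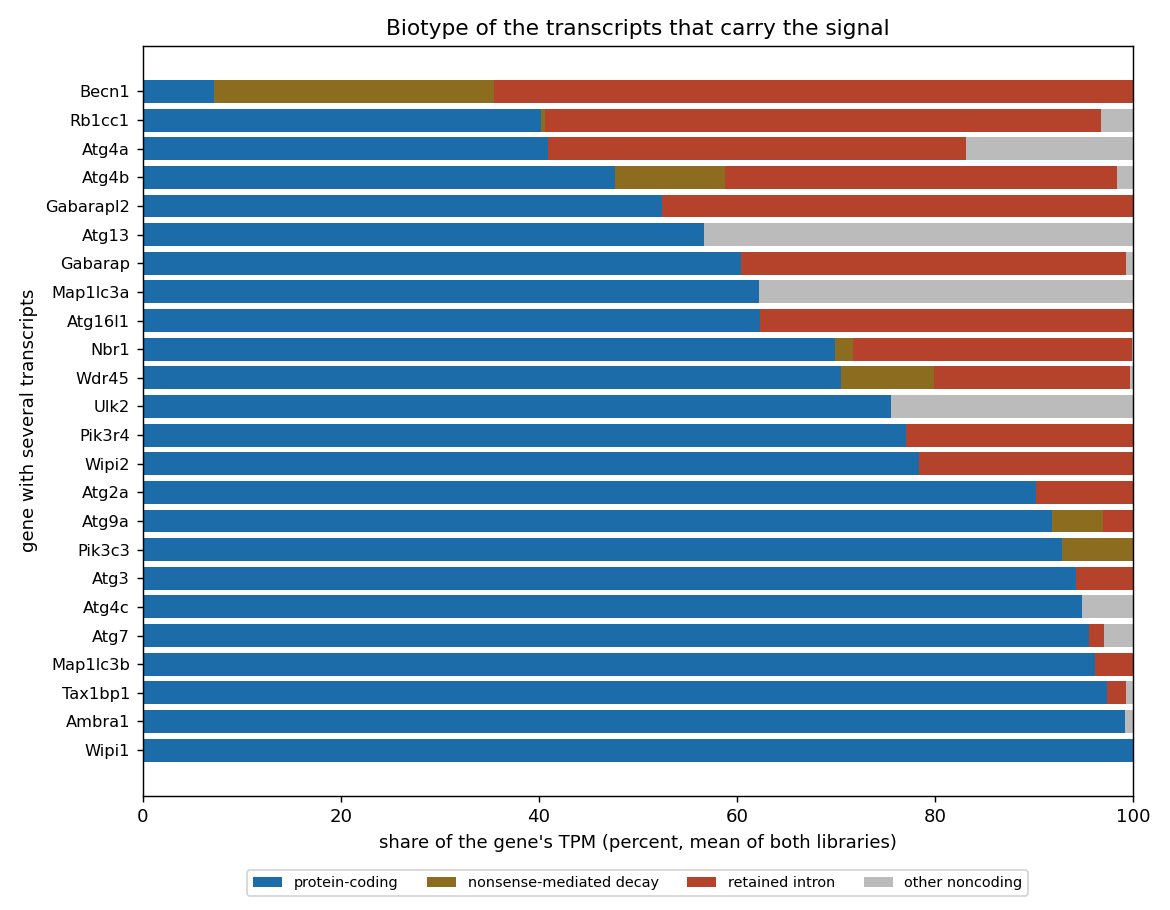
Share of each gene's TPM (percent, mean of both libraries) on transcripts of 4 biotype classes, for the 24 autophagy genes with several annotated transcripts, ordered by the protein-coding share. Becn1 has 7.18% on protein-coding transcripts, and Rb1cc1, Atg4a and Atg4b also lie under 50% of TPM. By expected counts, which are not divided by length, the protein-coding share is 77.8% for Rb1cc1, 78.3% for Atg4a and 69.3% for Atg4b. For Becn1 it is 16.2%.

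Becn1 (chromosome 11, 101285952 to 101302286, minus strand) had 7.19% of its TPM on protein-coding transcripts in replicate 1 and 7.17% in replicate 2, at the 0.521 percentile of the 6147 genes. Its protein-coding transcripts amounted to 7.27 and 6.25 TPM, which placed it at 32 of 34 by that measure. The leading transcript, Becn1-211, is a retained-intron model of 487 nt that took 46.2% of the TPM and 10.8% of the expected counts. Of its 487 bases, 482 lie in exons of protein-coding Becn1 transcripts, and 5 lie outside them. Becn1-201, annotated in GENCODE M21 as subject to nonsense-mediated decay, took 21.4% of the TPM and 34.7% of the counts, and 4 of its 2123 bases lie outside those exons. The RefSeq links of that annotation pair Becn1-201 with a protein, so the biotype classes need not separate what is translated. Over protein-coding and nonsense-mediated decay transcripts together, Becn1 over Pik3c3 was 1.02. Cntd1, on the opposite strand, overlaps 43.9% of Becn1's exonic bases and had 75 counts in replicate 1 and 56 in replicate 2, against 9812 and 7758 for Becn1.

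**Figure D4:**
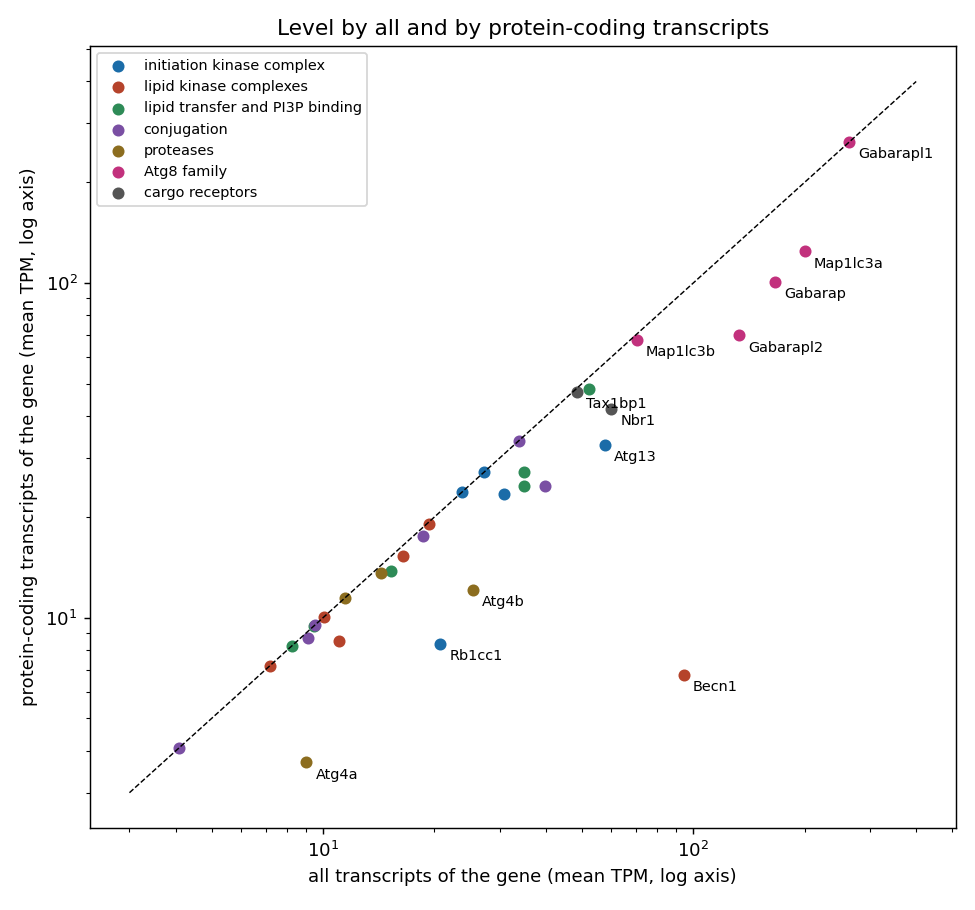
Mean TPM over the protein-coding transcripts of each autophagy gene against mean TPM over all its transcripts (log axes, dashed line of equality), coloured by group. Becn1 has 6.76 TPM on its protein-coding transcripts, against 94.1 TPM on all, while Gabarapl1, with 1 transcript, has the same 264.1 TPM.

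Within the Atg8 family, Gabarapl1 had a single transcript, and Map1lc3b had 96.2% of its TPM on protein-coding transcripts, which came to 63.7 TPM in replicate 1 and 71.9 in replicate 2. The other members were divided. Map1lc3a had 62.2%, with 37.8% on Map1lc3a-203, a processed transcript of which 69 of 826 bases lie outside exons of coding transcripts. Gabarapl2 had 52.4%, with 47.4% on the retained-intron model Gabarapl2-203, 92 of whose 749 bases lie outside those of coding transcripts. Its protein-coding transcripts came to 69.5 and 69.9 TPM, so the order of Map1lc3b and Gabarapl2 on that measure differed between the libraries. Counted over protein-coding transcripts, the family still held 53.6% of the members' TPM, and Gabarapl1 over Map1lc3a was 1.09 in place of 0.40. On that measure Map1lc3a over Map1lc3b was 0.88, Gabarap over Gabarapl1 was -1.40 and Gabarapl1 over Gabarapl2 was 1.92.

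Gabarap was the only member whose leading transcript differed between the libraries. Its 3 main transcripts part ways after the same exon, and 30 bases on each side show how, with the downstream part in capitals (GRCm38, plus strand). The stretches span chr11:69992414-69992611 for Gabarap-201, chr11:69992414-69994463 for Gabarap-202, which skips further and crosses a second junction, and chr11:69992414-69992473 for Gabarap-204, which reads on into the intron.
Gabarap-201: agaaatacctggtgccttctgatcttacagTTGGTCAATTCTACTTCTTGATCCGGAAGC
Gabarap-202: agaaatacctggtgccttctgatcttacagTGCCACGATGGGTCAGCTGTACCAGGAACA
Gabarap-204: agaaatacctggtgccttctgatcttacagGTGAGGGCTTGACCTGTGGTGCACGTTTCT
Gabarap-202 joins 94 bp downstream of the Gabarap-201 acceptor, which leaves a remainder of 1 base on division into codons, and it is annotated with 106 codons, against 117 for Gabarap-201. Gabarap-204 keeps an intron of 138 bp. Gabarap-201 had 49.2 TPM in replicate 1 and 43.2 in replicate 2. Gabarap-202 had 36.7 and 72.9 TPM, and Gabarap-204 had 63.5 and 64.8 TPM. The gap between the libraries thus lay mainly in Gabarap-202, with 1649 expected counts in replicate 1 and 2918 in replicate 2. Gabarap-201 had 4651 and 3679 counts. These counts are not scaled for library size, and replicate 1 was the larger library. Whether Gabarap-201 differed beyond library size was not tested.

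The replicate difference was taken as log2 of replicate 1 over replicate 2 of library-scaled read counts (CPM), called past 0.5 with a counting interval that excluded 0. It compares these libraries and has no replicate check. Past 0.5 were 0 of 34 members, against 4.62% of 14599 genes at 1 TPM or more, of which 2.55% were higher and 2.07% lower in replicate 1. The members ran from -0.31 to 0.15, with a median of 0.02 against 0.00 for all genes, and 19 of 34 were above 0, against 50.5%. The median distance from 0 was 0.07 for the members and 0.10 for all genes.

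**Figure D5:**
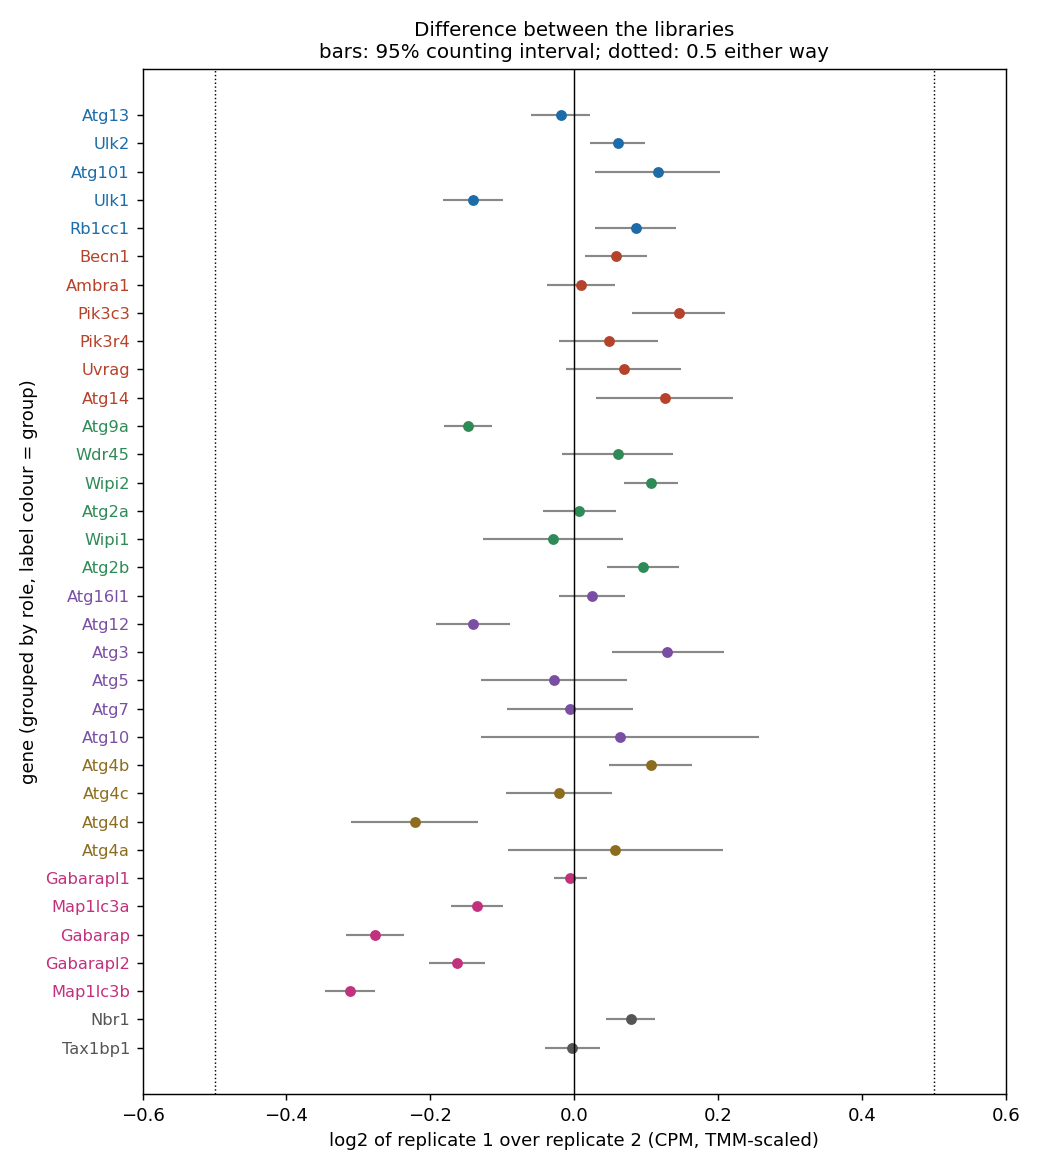
Log2 of replicate 1 over replicate 2 for each autophagy gene (horizontal axis), with 95% counting intervals as bars and dotted lines at 0.5 either way. The Atg8 family lies between -0.31 and -0.01, the 6 lipid kinase genes between 0.01 and 0.15.

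The 2 members past 0.25 were both Atg8 genes lower in replicate 1, whereas 15.7% of all genes passed 0.25, 7.87% higher and 7.80% lower in replicate 1. Map1lc3b had 12998 counts in replicate 1 and 13280 in replicate 2, a log2 ratio of -0.31 (counting interval -0.35 to -0.28). Gabarap had 10125 and 10100 counts, a ratio of -0.28 (-0.32 to -0.24). All 5 Atg8 genes had a ratio below 0, with a median of -0.16, but the interval of Gabarapl1 (-0.03 to 0.02) spanned 0, and its ratio turned to 0.046 when scaled by library total, 0.034 by spike-in total and 0.12 on log2(TPM + 1). Those scalings moved all genes, whose median was 0.054, 0.041 and 0.12 on them. Map1lc3a turned to 0.0027 on log2(TPM + 1). All 6 lipid kinase genes had a ratio above 0, from 0.01 for Ambra1 to 0.15 for Pik3c3, but the intervals of Ambra1 (-0.04 to 0.06), Pik3r4 (-0.02 to 0.12) and Uvrag (-0.01 to 0.15) spanned 0. Cell type markers also differed between the libraries, in both directions. Mural cell markers were higher in replicate 1 in 3 of 3 (median 0.29), and oligodendrocyte precursor markers in 2 of 2 (median 0.24). Astrocyte markers were higher in 2 of 4 (median 0.07) and endothelial markers in 2 of 3 (median 0.12). The 3 pan-neuronal markers were all lower in replicate 1 (median -0.22), and their summed TPM was 1712 in replicate 1 and 1730 in replicate 2. Of the 5 excitatory markers 2 were higher in replicate 1 (median -0.15), and of the 3 inhibitory markers 1 was (median -0.17). Striatal markers were lower in 3 of 3 (median -0.68) and blood markers in 4 of 4 (median -0.45), the blood sums being 514.2 TPM in replicate 1 and 664.5 in replicate 2. The 4 oligodendrocyte markers were all lower too, with sums of 1555 and 1915 TPM, and the 4 microglial markers all higher, with sums of 94.1 and 62.7 TPM. Their part in the Atg8 ratios was not tested. The X-linked members Wdr45 and Atg4a had ratios of 0.06 each.

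In the wider pathway, 61 of 61 genes of 4 further lists had a mean of 1 TPM or more, against 61.7% of protein-coding genes. Other core factors had a median of 30.4 TPM over 11 genes, with the membrane proteins Ei24 at 65.6 ± 3.37 TPM and Vmp1 at 41.0 ± 0.59 TPM. The paralogs of members differed in how far they sat from them. Atg9b was the lowest of the list at 2.41 TPM in replicate 1 and 1.47 in replicate 2, and Atg9a exceeded it by a log2 ratio of 4.80 ± 0.52. Atg16l1 over Atg16l2 was 0.39 ± 0.04 over all transcripts, but 2.28 ± 0.0046 over protein-coding transcripts. The distance of this pair thus depended on the transcript set. By counts not divided by length its ratio was 1.83, which also carries the effective lengths, 2388 and 911 bases in replicate 1. Wdr45 over Wdr45b was -0.10 ± 0.02 over all transcripts, not apart by the intervals, but -0.59 ± 0.08 over protein-coding transcripts. By counts, which carry length in the same way, it was -1.13. Atg9a over Atg9b was 6.41 ± 0.10 over protein-coding transcripts.

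The 13 further cargo receptors had a median of 31.4 TPM. Sqstm1 (p62), the ubiquitin-binding receptor that aggregates with its cargo, had 190.4 TPM in replicate 1 and 164.4 in replicate 2, and exceeded Nbr1 by 1.56 ± 0.01. Bnip3l (NIX), a mitophagy receptor, had 92.1 and 78.3 TPM, and Optn was lowest at 6.97 and 5.79 TPM. The 24 upstream regulators had a median of 16.0 TPM. Pink1, the kinase that marks damaged mitochondria, led them at 168.3 ± 9.64 TPM, followed by Rheb, the GTPase that activates mTORC1, at 57.3 ± 2.63 TPM. Tfeb, a transcription factor of lysosomal and autophagy genes, had 4.91 and 4.89 TPM, and Foxo1 was lowest at 4.58 and 4.49 TPM. The Tfeb values lay below their own deposited intervals, 5.15 to 6.67 in replicate 1 and 5.15 to 6.81 in replicate 2. The 13 fusion genes had a median of 22.5 TPM, led by the late endosomal GTPase Rab7 at 193.0 ± 8.17 TPM. Rilp, a Rab7 effector, was lowest at 1.50 and 0.96 TPM and was the only 1 of the 61 past 0.5 between the libraries, at 0.52, against 4.62% of all genes. With it below 1 TPM in replicate 2, 12 of the 13 fusion genes reached 1 TPM in both libraries.

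Some members share sequence with other loci, and for those the assignment of reads matters. Of the 34, 26 shared no read-length stretch of bases with a transcript of another gene. Atg4a shared 34.5% of its stretches with Atg4a-ps, Atg9a 27.7% with Gm29253 and Wdr45 12.5% with Gm45208, and Gabarapl2 and Map1lc3b shared 6.67% and 2.82% with pseudogenes and other loci. Atg4a-ps had 7.18 expected counts in replicate 1 and 2.64 in replicate 2, and Gm29253 had 134.5 and 83.8. Tmed7, one of the loci that together share 0.768% of Atg2b's stretches, had 7547 and 5549. Gm45208 had no entry in the deposited quantification. The shared percentages do not give the uncertainty of the values. For Atg4a the posterior SD of the count was 0.146% of its mean in replicate 1 and 0.166% in replicate 2. Its Poisson values were 3.47% and 3.90%. For Atg9a the posterior SD was 0.097% and 0.080%. How far the sharing affects the levels was not tested.

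The members are spread over the genome, with a close pair in Atg13 and Ambra1, which lie 19.6 kb apart on chromosome 2, point away from each other and have Harbi1 between them. Promoter windows, 250 bases before to 50 after the start from RefSeq on GRCm38.p6, matched for 28 of 34 members. Their median GC content was 60.4%, against 56.3% for 17491 genes. The E-box CACGTG, a palindrome that reads the same on both strands, occurred in 4 of the 28 (14.3%), those of Atg14, Atg3, Atg5 and Atg7, against 8.91% of all genes. The longer TCACGTGA, also a palindrome and containing the E-box, occurred in 1 of 28, that of Atg3, against 1.41%. The same palindrome with a further G before it and C behind it occurred in 0 of 28, against 0.469%. These are matches of letters in a window and are given as a description.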

How the data were processed

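Polyadenylated RNA longer than 200 nt was sequenced as stranded read pairs, per the labels, in 1 group of 2 libraries. The authors deposited gene and transcript quantifications on mm10 with annotation M4, per the deposited text description. Which program and aligner were used is not given in the sources used here. Deposited values used were expected counts (estimated fragments), TPM and FPKM, posterior mean counts, posterior SDs of counts (a score), the percent of a gene's TPM on each transcript, and TPM interval bounds (a signal-scale value whose level the files do not state). Expected counts were rounded for edgeR.

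Symbols, biotypes and coordinates came from GENCODE M21, matched for 42462 of 43346 genes. The members, groups, pairs and lists were chosen with earlier results of these data known. All 34 members are named by role; from each further list the highest and lowest genes and paralogs of members are named, with Vmp1, Tfeb, Bnip3l and Rheb chosen after their values were seen. Replicate ratios used CPM with a prior count of 2, edgeR 4.0.16 (R 4.3.3) TMM factors of 1.02 and 0.982, and 95% exact binomial intervals conditional on the total. Without molecular identifiers PCR copies cannot be recognised, and these intervals therefore cover counting error alone. No p-values were computed. The ratio script was tested on simulated data. Pairs used deposited TPM. Isoform shares used members and genes at 10 TPM or more with 2 or more transcripts as background. Alternatives covered the level measure, denominators, thresholds, length, pseudocounts, DESeq2 1.42.0 size factors, prior count, filters and each replicate left out, and, added after seeing the data, restriction to protein-coding transcripts with or without those subject to nonsense-mediated decay. Posterior SDs of member counts were smaller than Poisson error.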

Additional observations from a re-analysis of the deposited data

How the results depend on the processing

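All 34 members stayed at 1 TPM or more under every level alternative run at that threshold. The median and summed TPM of the members were 19.7 and 1279 as FPKM, 49.8 and 3226 when rescaled to nuclear protein-coding genes, and 18.3 and 1169 over protein-coding transcripts, an alternative added after seeing the data. With each replicate left out the median was 24.3 to 24.7 TPM and the sum 1565 to 1617. The median replicate ratio was 0.069 by library total, 0.13 on log2(TPM + 1) and 0.14 on log2(TPM + 0.1), against 0.02, and 2 members passed a 0.25 threshold. The median over all tested genes moved alike, to 0.054, 0.12 and 0.13 on these scalings, against 0.0021. The median percent of TPM on protein-coding transcripts over all members, 93.5%, was 92.0% by posterior mean TPM and 92.8% to 93.8% with each replicate left out. The 10 members with 1 annotated transcript are fixed at 100% in each of these, so part of this stability is built in. The number of pairs apart was 25 to 27 in every alternative. With 1 replicate left out there is no SD, so the rule could not be applied in full there. Over protein-coding transcripts the sign turned for Ulk1 over Ulk2 (0.022), Becn1 over Pik3c3 (-1.17), Ambra1 over Becn1 (1.50), Wdr45 over Wipi2 (-0.14), Atg4b over Atg4c (-0.16) and Nbr1 over Tax1bp1 (-0.18), and with nonsense-mediated decay transcripts added for Ulk1 over Ulk2 (0.022) and Nbr1 over Tax1bp1 (-0.14). Counts not divided by length turned Atg2a over Atg2b (-0.027), Wdr45 over Wipi2 (-2.05), Map1lc3a over Map1lc3b (-0.075) and Gabarap over Gabarapl2 (-0.084), and counts per kilobase of the longest transcript turned Wdr45 over Wipi2 (-0.35) and Nbr1 over Tax1bp1 (-0.28). Wdr45 over Wipi2 was -0.065 in replicate 1 alone and 0.080 in replicate 2 alone. Counts not divided by length also carry the ratio of the genes' lengths. Where the transcript set or the longest-transcript length turned a sign, the cause was not tested. No paired analysis was possible because the series has 1 group. With 2 libraries each SD rests on 1 degree of freedom, and Atg10, with 505 and 398 counts, had the widest counting interval.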
